A study of Mus musculus with 18 samples.

Results

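Mitochondrial ribosomal protein genes were taken as every gene with a protein_coding transcript and a symbol of *Mrpl* or *Mrps* followed by a digit. The rule found 78 genes, 49 of the large subunit (*Mrpl*) and 29 of the small subunit (*Mrps*), among 54752 genes with RNA values, 21904 of which have a protein_coding transcript. The cerebellum of 3-week-old mice was profiled by poly(A) RNA sequencing and by ribosome profiling, which sequences the mRNA fragments that ribosomes protect (footprints). The 3 genotypes were B6J, B6J.*Gtpbp1*-/- and B6J-*Gtpbp2*-/-, with 3 libraries per genotype and assay, 18 in all. The *Gtpbp1* allele carries a neomycin cassette in place of part of the gene and was backcrossed to B6J, and the *Gtpbp2* allele is the nmf205 point mutation. Mice of all genotypes, controls included, are homozygous for the B6J processing mutation in *n-Tr20*, a nuclear gene for the arginine tRNA with anticodon UCU. GTPBP1 and GTPBP2 are related GTPases of the translation machinery.

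Ribosomes of the mitochondrial matrix translate the few proteins encoded by mitochondrial DNA, all of them parts of the oxidative phosphorylation complexes. Their rRNAs are transcribed inside the organelle, whereas every protein of the large and small subunits is encoded in the nucleus, made by cytosolic ribosomes and imported. Neurons, which rely heavily on respiration, need this import to build their respiratory chain.

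The RNA libraries held 49090501, 50301391 and 52114400 estimated counts in B6J, 44243134, 49294194 and 37794598 in B6J.*Gtpbp1*-/-, and 46027009, 50878852 and 51979679 in B6J-*Gtpbp2*-/-. Footprint libraries were shallower, with 4428395, 4489970 and 6523974 counts on coding sequence in B6J, 7054063, 8612441 and 5944024 in B6J.*Gtpbp1*-/-, and 6281637, 3630823 and 10442573 in B6J-*Gtpbp2*-/-. All 78 genes passed the filters on low counts in every comparison. They took 0.180% to 0.203% of the RNA counts and 0.295% to 0.356% of the footprint counts of a library. Sex, read from the Y-linked gene *Ddx3y*, was not balanced. All B6J-*Gtpbp2*-/- libraries of both assays were female, while B6J replicate 2 and B6J.*Gtpbp1*-/- replicates 1 and 2 were male in RNA, and B6J replicates 1 and 2 and B6J.*Gtpbp1*-/- replicate 1 in footprints. Assay and label batch coincide (RNA in Batch 1, footprints in Batch 2), so a level of footprints relative to RNA cannot be told apart from a batch difference.

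The targeted genes were read first, in CPM of library totals scaled by TMM. *Gtpbp1* RNA was 70.7, 77.6 and 66.5 CPM in the B6J libraries, 44.2, 41.7 and 43.8 in B6J.*Gtpbp1*-/- and 58.8, 72.3 and 65.8 in B6J-*Gtpbp2*-/-. The 3 *Gtpbp1* mutant libraries lay below all others. The log2 fold change was -0.73 (SE 0.0818, edgeR adjusted p = 5.94e-05), although it was -0.29 (adjusted p = 0.1) with an offset for effective transcript length and -0.14 (adjusted p = 0.419) with limma on log2(TPM + 0.5). *Gtpbp1* footprints were 73.9, 116 and 85.6 CPM in B6J against 31.7, 25.4 and 36.1 in B6J.*Gtpbp1*-/-, without overlap (log2 fold change -1.57, SE 0.227, edgeR adjusted p = 0.00676). *Gtpbp2* carries a point mutation, so its RNA level need not follow the genotype. *Gtpbp2* RNA was 85.6, 73.8 and 87.8 CPM in B6J and 65.6, 75.5 and 72.9 in B6J-*Gtpbp2*-/-, with overlap and an edgeR adjusted p of 0.19. In B6J.*Gtpbp1*-/- it was 109, 101 and 104 CPM, above every B6J library (log2 fold change 0.34, SE 0.0828, edgeR adjusted p = 0.0154).

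Levels were first compared between genes in B6J, in TPM, which corrects for transcript length. Mitochondrial ribosomal protein genes formed a fairly even group with a median of 46.6 TPM, the middle 50% of genes lying between 37.4 and 61.8 TPM. The 13525 genes with a coding length and at least 1 TPM had a median of 23.1 TPM, cytosolic ribosomal protein genes 333 TPM, and nuclear genes of oxidative phosphorylation 254 TPM. Large and small subunit genes had medians of 48.0 and 46.2 TPM. Counting protein_coding transcripts alone gave a median of 39.6 TPM for the 78 genes.

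The highest RNA level belonged to *Mrps21*, the bS21m protein of the small subunit, at 155, 140 and 141 TPM in the 3 B6J libraries. *Mrpl42* followed with 134, 123 and 156 TPM, and *Mrpl20*, the bL20m protein, with 124, 129 and 125 TPM. *Mrpl42* overlapped each of the other 2, while *Mrps21* was above *Mrpl20* in every library. *Mrpl20* was in turn separate from the next gene, *Mrpl41*, at 93.1, 104 and 121 TPM. *Mrps33* held 105, 103 and 103 TPM. Of 77 neighbouring pairs in the order of levels, 4 had ranges that did not overlap, so most ranks are not resolved with 3 libraries.

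At the low end stood *Mrpl23*, the uL23m protein near the tunnel exit, at 4.77, 7.14 and 6.62 TPM, below every library of the next gene *Mrpl1* (uL1m) at 14.6, 12.7 and 12.9 TPM. *Mrpl23* shares 53.0% of its 31-base words with transcripts of other genes, mostly with its copy *Mrpl23-ps1*, so the split of reads between both is uncertain. *Mrps30* (13.6, 13.4 and 16.7 TPM), *Mrpl19* (13.0, 16.7 and 18.4 TPM) and *Mrpl11* (16.2, 15.3 and 18.6 TPM) overlapped among themselves.

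Some symbols do not match the place of the protein. *Mrps18a* (mL66) and *Mrps30* (mL65) sit in the large subunit in structures, and *Mrps36* is a component of the 2-oxoglutarate dehydrogenase complex. Their mean B6J levels were 61.0, 14.6 and 71.0 TPM. *Mrpl12*, a stalk protein that also binds the mitochondrial RNA polymerase, had 64.7 TPM, *Mrps12*, the uS12m protein of the decoding centre, 64.5 TPM, and *Mrpl58*, a peptidyl-tRNA hydrolase built into the large subunit, 77.0 TPM.

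**Figure D1:**
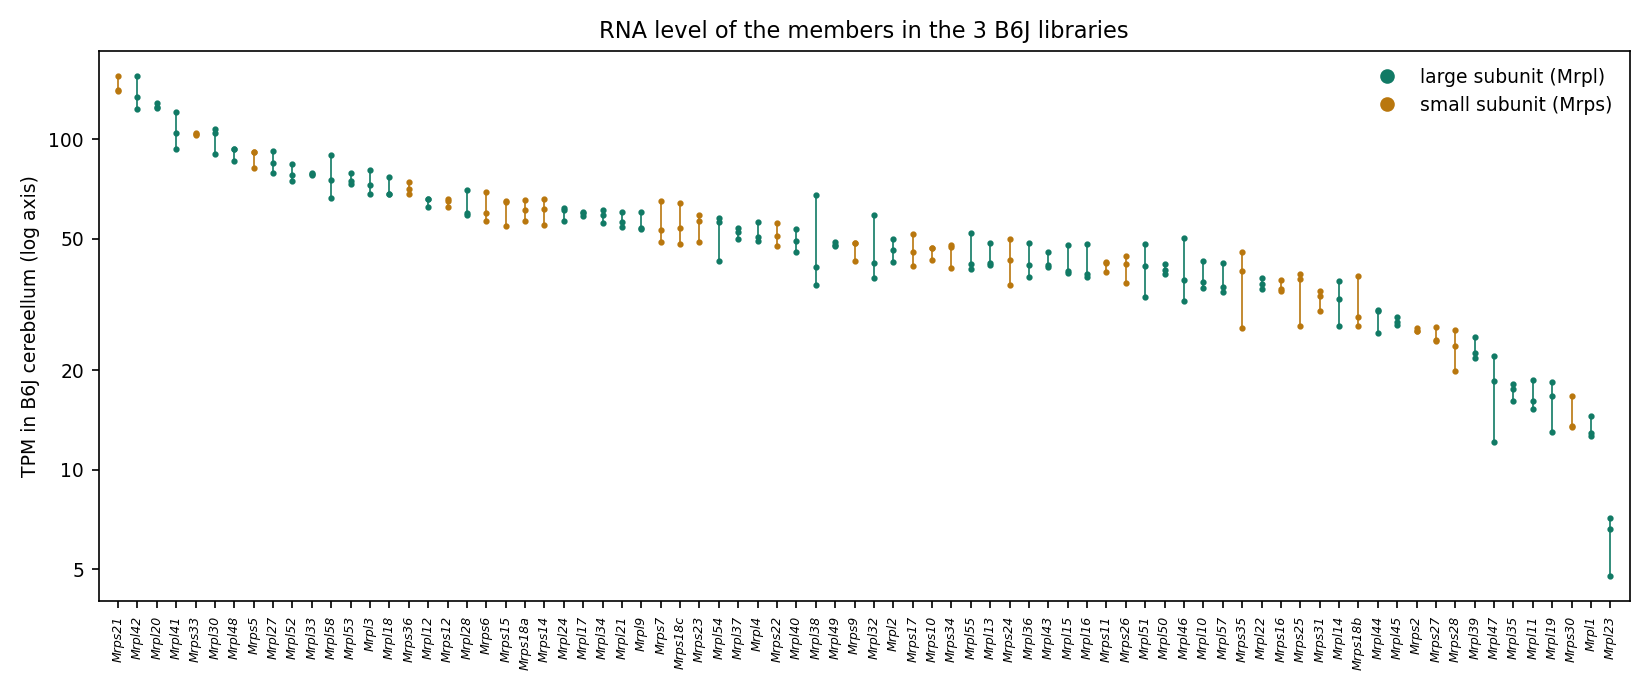
RNA level (TPM, log axis) of the 78 mitochondrial ribosomal protein genes in B6J cerebellum, 1 point per library and a line over the range, ordered by mean and coloured by subunit. Levels run from 145 TPM for *Mrps21* to 6.18 TPM for *Mrpl23*, and both subunits are spread along the whole order.

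Footprint density (unscaled CPM per kilobase of coding sequence) had a median of 63.0 over the 78 genes in B6J, 71.1 for the large and 55.3 for the small subunit, against 17.6 over all genes. *Mrpl20* had the highest mean density, with 227, 228 and 202 in the 3 libraries, but *Mrpl34*, with 165, 229 and 211, was above it in 2 of them, so the order is not resolved. The log2 ratio of footprint density to TPM had a median of 0.47 (0.53 large, 0.17 small), against -0.27 over all genes, -1.36 for cytosolic ribosomal protein genes and 0.96 for nuclear oxidative phosphorylation genes. The ratio was highest for *Mrpl23* (2.58), *Mrpl11* (2.42) and *Mrpl14* (1.88), and lowest for *Mrps5* (-1.71), *Mrpl48* (-1.37) and *Mrps33* (-1.03). The first rank is uncertain, since *Mrpl23* was assigned a mean of 149 RNA counts in B6J and *Mrpl23-ps1*, which shares its words, 737. *Mrps33* footprints were uneven, with 34.8 and 28.7 in B6J replicates 1 and 2 and 88.7 in replicate 3. *Mrps5* RNA came mostly from transcripts that are not protein_coding, whose share of TPM was 65.9% for retained introns.

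Many of these genes have several annotated transcripts. The 78 genes hold 331 transcripts, and 7 genes have 1. In B6J a median of 90.4% of a gene's TPM lay on protein_coding transcripts, 39 genes had at least 90% there, and 13 had under 50%. The lowest shares were those of *Mrps24* (10.99%), *Mrps16* (12.2%), *Mrps26* (12.8%) and *Mrpl32* (16.1%). Estimates of single isoforms can shift between transcripts of 1 gene, so the comparisons below use gene sums.

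RNA was first compared between B6J.*Gtpbp1*-/- and B6J, both with the *n-Tr20* mutation. RNA of 13 mitochondrial ribosomal protein genes fell and that of 1, *Mrps18b*, rose, at an edgeR adjusted p of at most 0.05. Among all 24577 genes tested 7.93% were lower and 5.9% higher. Among the 13172 genes at least as abundant as the lowest of the 78, a background chosen after seeing the data, 14.1% were lower and 8.14% higher. The 13 of 78 are thus near the share of comparably abundant genes. The median log2 fold change of the 78 genes was -0.11 against 0.03 over all genes tested. Of the 78 genes, 59 were negative and 19 positive, while 52.9% of all genes were positive. Among comparably abundant genes, medians in bins of transcript length (given below) ran from -0.17 to 0.00. Changes were small, the largest being that of *Mrpl34* at -0.72.

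In the large subunit 9 of 49 genes fell, with a median log2 fold change of -0.13. The bL34m gene *Mrpl34* had 12.9, 12.1 and 13.4 CPM in B6J, 6.45, 8.47 and 8.47 in B6J.*Gtpbp1*-/-, and 9.90, 9.67 and 6.73 in B6J-*Gtpbp2*-/-. Every mutant library of either genotype lay below every B6J library. Its log2 fold change in B6J.*Gtpbp1*-/- was -0.72 (SE 0.151, edgeR adjusted p = 0.0063), and it was called in 14 of 16 alternative fits. *Mrpl12* RNA was 43.6, 41.9 and 44.2 CPM in B6J, 34.6, 33.4 and 36.3 in B6J.*Gtpbp1*-/-, and 32.4, 31.7 and 32.9 in B6J-*Gtpbp2*-/-. The 3 groups did not overlap, with B6J highest (log2 fold change -0.32 in B6J.*Gtpbp1*-/-, SE 0.0839, edgeR adjusted p = 0.0221). *Mrpl36*, the small zinc-binding bL36m protein, had 18.3, 15.3 and 14.3 CPM in B6J, 11.8, 12.5 and 10.2 in B6J.*Gtpbp1*-/- and 9.66, 11.3 and 11.4 in B6J-*Gtpbp2*-/-. B6J stood apart from both mutants, which overlapped (log2 fold change -0.48, SE 0.138, edgeR adjusted p = 0.0361).

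*Mrpl53* (mL53), a large subunit protein without a bacterial counterpart, had 19.0, 19.5 and 18.4 CPM in B6J, 15.0, 14.3 and 14.3 in B6J.*Gtpbp1*-/- and 14.2, 14.3 and 12.2 in B6J-*Gtpbp2*-/-. All mutant libraries were lower than all B6J libraries (log2 fold change -0.39, SE 0.106, edgeR adjusted p = 0.0258). All of its 31-base words also occur in the overlapping gene *Gm42688*, so the estimate is uncertain. *Mrpl28* (bL28m) had 31.1, 37.1 and 28.9 CPM in B6J and 23.7, 25.3 and 23.3 in B6J.*Gtpbp1*-/- (log2 fold change -0.43, SE 0.107, edgeR adjusted p = 0.0165). *Mrpl41* (mL41) had 23.1, 28.3 and 32.3 CPM in B6J and 21.03, 19.7 and 17.8 in B6J.*Gtpbp1*-/- (log2 fold change -0.52, SE 0.127, edgeR adjusted p = 0.015). For both, the lowest B6J library was above the highest B6J.*Gtpbp1*-/- library in CPM, whereas *Mrpl41* in B6J-*Gtpbp2*-/-, at 29.7, 17.3 and 17.1, overlapped B6J.

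The remaining falls called in the large subunit were those of *Mrpl18* (uL18m), *Mrpl40* (mL40) and *Mrpl48* (mL48). *Mrpl18* had 34.8, 34.4 and 40.4 CPM in B6J and 27.7, 30.8 and 28.7 in B6J.*Gtpbp1*-/-, *Mrpl40* 21.7, 21.4 and 23.8 against 17.0, 17.2 and 18.3, and *Mrpl48* 60.0, 60.8 and 56.5 against 47.0, 50.1 and 48.3. None overlapped in CPM. They fell by 0.34, 0.36 and 0.29 on the log2 scale (edgeR adjusted p = 0.0369, 0.0355 and 0.023). With limma on log2(TPM + 0.5) the changes were -0.11, -0.04 and 0.03, the last with the sign turned and none called (adjusted p = 0.485, 0.809 and 0.838).

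In the small subunit 4 of 29 genes fell and 1 rose, with a median log2 fold change of -0.08. *Mrps12* RNA was 20.9, 21.8 and 21.3 CPM in B6J, 16.6, 16.7 and 15.7 in B6J.*Gtpbp1*-/- and 15.7, 16.5 and 17.0 in B6J-*Gtpbp2*-/-. The mutants overlapped each other and lay below B6J (log2 fold change -0.39, SE 0.1, edgeR adjusted p = 0.0194). *Mrps25* (mS25) had 55.7, 62.1 and 63.4 CPM in B6J, 49.8, 44.6 and 48.1 in B6J.*Gtpbp1*-/- and 46.7, 47.5 and 52.2 in B6J-*Gtpbp2*-/-. B6J was again highest in CPM (log2 fold change -0.35, SE 0.0842, edgeR adjusted p = 0.0135), but 74.6% of its 31-base words are shared with *Nr2c2*, which overlaps it on the other strand, and these libraries do not keep strand. *Mrps21* had 19.9, 17.5 and 18.1 CPM in B6J and 12.6, 13.3 and 14.1 in B6J.*Gtpbp1*-/-, without overlap (log2 fold change -0.48, SE 0.116, edgeR adjusted p = 0.0137). *Mrps34* (mS34) had 23.0, 19.0 and 21.7 CPM in B6J and 17.1, 15.2 and 15.5 in B6J.*Gtpbp1*-/-, also apart in CPM (log2 fold change -0.42, SE 0.114, edgeR adjusted p = 0.0272), and shares 55.6% of its words, mostly with *Mapk8ip3*.

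The gene that rose, *Mrps18b* (mS40), had 17.5, 11.6 and 13.6 CPM in B6J, 19.7, 20.02 and 20.6 in B6J.*Gtpbp1*-/- and 16.5, 18.5 and 18.3 in B6J-*Gtpbp2*-/-. B6J.*Gtpbp1*-/- was above both other groups, which overlapped (log2 fold change 0.49, SE 0.144, edgeR adjusted p = 0.0372). It shares 59.6% of its words with other genes. The call held in 9 of 16 alternative fits, the alternatives giving an adjusted p from 0.00258 to 0.134. The call was lost on leaving out any B6J.*Gtpbp1*-/- library or B6J replicate 2 or 3. Losses also came with a block for replicate number and with the effective length offset.

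**Figure D2:**
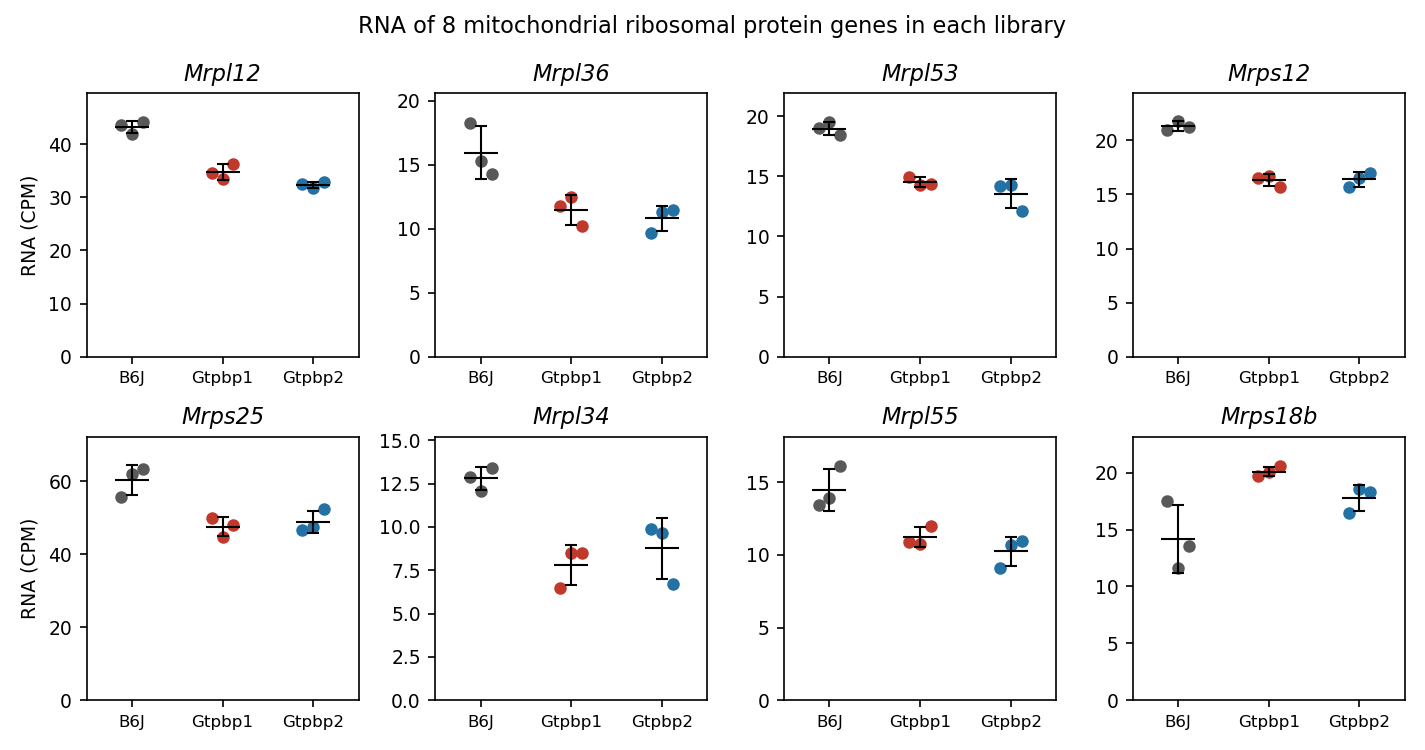
RNA (CPM, TMM-scaled, axes from 0) of 8 genes in each library of B6J, B6J.*Gtpbp1*-/- and B6J-*Gtpbp2*-/-, with 1 point per library, the mean and 1 SD. In the panel of *Mrpl12*, B6J libraries lie between 41.9 and 44.2 CPM and the 6 mutant libraries between 31.7 and 36.3 CPM.

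The count of 14 depended on single libraries and on settings. Without B6J.*Gtpbp1*-/- replicate 1, 2 or 3 it was 5, 2 or 4, and without B6J replicate 1, 2 or 3 it was 6, 5 or 12. With a term for sex it was 6, and the median of the 78 genes was -0.09. With an offset for the effective length of transcripts 0 of the 78 genes passed in edgeR, against 2127 of all 24577 genes. The median of the 78 genes with this offset was -0.06, with 54 negative, while 54.6% of all genes were positive. The median of all genes was 0.05, so relative to all genes the 78 stood at -0.11. All genes, here and in the fits below, include genes less abundant than any of the 78. No median of comparably abundant genes is given for these fits. With limma on log2(TPM + 0.5) 2 passed, *Mrps18b* and *Mrps31*, both higher, and the 78 genes had a positive median of 0.10 while the median of all genes moved to 0.16, so relative to all genes they stood at -0.07. Upper quartile scaling gave -0.06 for the 78 genes and 0.08 for all genes. The share of called genes that were higher was 42.6% with TMM, 54.9% with upper quartile scaling and 75.2% with limma on TPM. Summed over the 78 genes, TPM was 4068, 4034 and 4236 in B6J and 4223, 4353 and 4199 in B6J.*Gtpbp1*-/-, which overlap, so a lower total was not seen on the TPM scale.

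The comparison of B6J-*Gtpbp2*-/- with B6J, which shares the 3 B6J libraries with the one above, gave 6 genes that fell and 0 that rose in edgeR. Of all 24859 genes tested 5.02% were lower and 3.61% higher, and of the 13136 genes at least as abundant as the lowest of the 78, 9.17% were lower and 5.01% higher. The 6 of 78 are again close to the share of comparably abundant genes. Large subunit genes accounted for 4 of 49 (median log2 fold change -0.16) and small subunit genes for 2 of 29 (median -0.10). The median of all 78 was -0.13 against 0.03 over all genes tested. Of the 78 genes, 61 were negative, while 53.0% of all genes were positive. Among comparably abundant genes, medians in bins of transcript length ran from -0.17 to 0.01. An unadjusted p under 0.05 was found for 22 of the 78 genes (5585 of all 24859), and DESeq2 called 16 (3409 of all).

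*Mrpl12* had the lowest p, with a log2 fold change of -0.43 (SE 0.0817, edgeR adjusted p = 0.0089) and all 3 mutant libraries under all 3 B6J libraries. It was called in 15 of 16 alternative fits, whose adjusted p ran from 0.000133 to 0.112. *Mrpl53* fell by 0.49 (SE 0.121, edgeR adjusted p = 0.0284) and *Mrpl36* fell by 0.57 on the log2 scale (SE 0.144, edgeR adjusted p = 0.0325). *Mrps12* fell by 0.39 (SE 0.105, edgeR adjusted p = 0.0436) and *Mrps25* fell by 0.31 (SE 0.0862, edgeR adjusted p = 0.0451). *Mrpl55* (bL31m) had 13.4, 13.9 and 16.1 CPM in B6J, 10.9, 10.8 and 12.02 in B6J.*Gtpbp1*-/- and 9.11, 10.7 and 10.95 in B6J-*Gtpbp2*-/-. Both mutants were below B6J, and the gene passed in B6J-*Gtpbp2*-/- (log2 fold change -0.51, SE 0.142, edgeR adjusted p = 0.0487). *Mrpl12*, *Mrpl36*, *Mrpl53*, *Mrps12* and *Mrps25* fell in both mutants, each time against the same B6J libraries, so these calls are not independent. The share of all genes that fell in both is not given here, so this overlap is listed without a background.

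The calls differed in how many of the 16 alternative fits kept them. In B6J.*Gtpbp1*-/- and B6J-*Gtpbp2*-/-, *Mrpl12* was called in 9 and 15, *Mrpl36* in 6 and 7, *Mrpl53* in 5 and 9, *Mrps12* in 10 and 4, and *Mrps25* in 12 and 5. Of the genes called in B6J.*Gtpbp1*-/- alone, *Mrpl28* held in 11, *Mrps21* in 10, *Mrpl41* in 9, *Mrps34* in 8, *Mrpl48* in 6, and *Mrpl18* and *Mrpl40* in 5. *Mrpl55* in B6J-*Gtpbp2*-/- held in 4.

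On the TPM scale these falls were smaller, and limma on log2(TPM + 0.5) called none of them. In B6J.*Gtpbp1*-/- it gave -0.43 for *Mrpl34*, -0.32 for *Mrpl41*, -0.26 for *Mrpl36*, -0.24 for *Mrpl28*, -0.20 for *Mrps21*, -0.17 for *Mrpl12*, -0.15 for *Mrps12*, -0.14 for *Mrpl53*, -0.13 for *Mrps25* and -0.12 for *Mrps34*. TPM of *Mrps25* was 39.0, 37.9 and 27.2 in B6J against 30.9, 30.2 and 32.5 in B6J.*Gtpbp1*-/-, and that of *Mrps34* 48.0, 40.8 and 47.0 against 44.2, 39.3 and 40.7. Both overlapped, as did *Mrpl18*, *Mrpl36*, *Mrpl40*, *Mrpl41* and *Mrpl48*, whereas *Mrpl12*, *Mrpl28*, *Mrpl34*, *Mrpl53*, *Mrps12* and *Mrps21* stayed apart. All of these genes were picked by their edgeR call, and the share of all genes that stay apart is not given here. In B6J-*Gtpbp2*-/- it gave -0.38 for *Mrpl36*, -0.34 for *Mrpl55*, -0.31 for *Mrpl53*, -0.25 for *Mrpl12*, -0.21 for *Mrps12* and -0.01 for *Mrps25*, and of these only *Mrps25* overlapped B6J in TPM.

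This RNA count against B6J too moved with single libraries. Without B6J-*Gtpbp2*-/- replicate 1, 2 or 3 it was 3, 1 or 1, and without B6J replicate 1, 2 or 3 it was 1, 1 or 4. With a term for sex, where B6J-*Gtpbp2*-/- is all female, 1 gene passed, *Mrpl12*, against 1071 of all 24859 genes. The median of the 78 was then -0.16, and that of all genes 0.03. With the effective length offset 1 gene passed, *Mrpl12* (log2 fold change -0.40). The median of the 78 with this offset was -0.15, and that of all genes 0.03. With limma on log2(TPM + 0.5) 0 passed. In that fit the median of the 78 was 0.01, opposite in sign, while the median of all genes was 0.15, so relative to all genes they stood at -0.14. All genes again include less abundant ones, and no median of comparably abundant genes is given for these fits. The share of called genes that were higher was 41.8% with TMM, 53.3% with upper quartile scaling and 77.2% with limma on TPM. Summed TPM of the 78 genes was 3904, 4206 and 4132 in B6J-*Gtpbp2*-/-, overlapping B6J.

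With TMM scaling the median RNA fold change was lowest among genes with short transcripts in both mutants, in bins of length chosen after seeing the data. This is a description of medians, and no test of the bins was made. Among abundant genes with a mean effective length up to 500 bases the median log2 fold change was -0.17 in each mutant, and above 5000 bases it stood at 0.00 (*Gtpbp1* mutant) and 0.01 (*Gtpbp2* mutant). In B6J.*Gtpbp1*-/- the 16 members in the shortest bin had a median of -0.13, the 31 members between 500 and 1000 bases -0.13, the 24 between 1000 and 2000 bases -0.05, and the 7 between 2000 and 5000 bases 0.03. Genes of these bins had medians of -0.17, -0.09, -0.05 and -0.02. In B6J-*Gtpbp2*-/- the members' medians were -0.18, -0.20, -0.07 and -0.06, and those of all genes -0.17, -0.09, -0.05 and -0.02. The effective length that the quantification assigned to 10639 transcripts of over 400 and up to 500 bases had a median of 195, 190 and 196 bases in B6J, 172, 181 and 174 in B6J.*Gtpbp1*-/- and 195, 193 and 178 in B6J-*Gtpbp2*-/-. *Gtpbp1* mutant libraries were below B6J on this measure, and its part in the results was not tested.

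**Figure D3:**
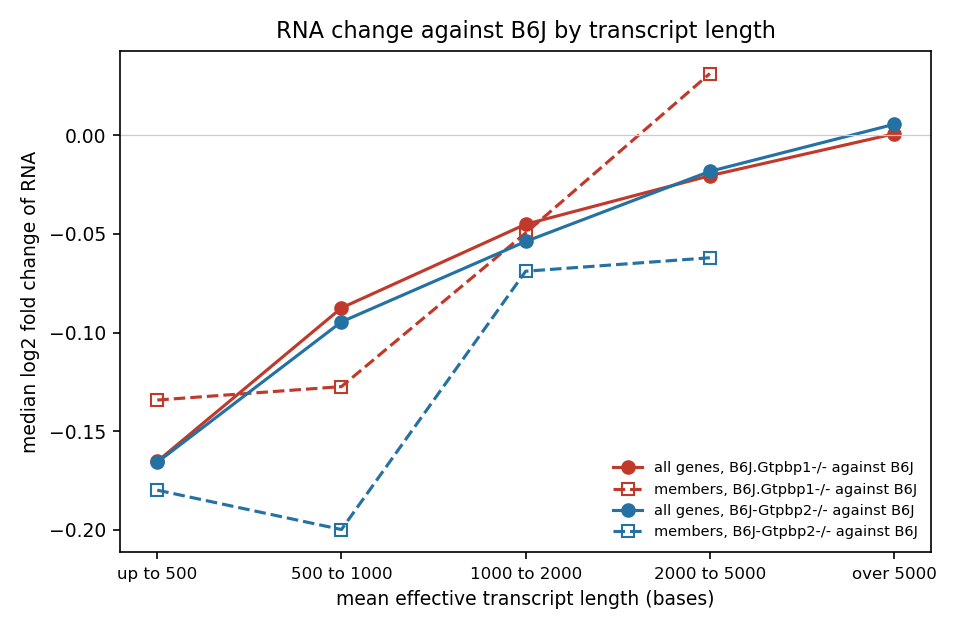
Median log2 fold change of RNA against B6J by bin of mean effective transcript length (bases), for all abundant genes (circles, solid line) and for the mitochondrial ribosomal protein genes (squares, dashed line) in each mutant. The all-gene median goes from -0.17 in the shortest bin to 0.00 (B6J.*Gtpbp1*-/-) and 0.01 (B6J-*Gtpbp2*-/-) in the longest, with the TMM-scaled fit.

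Between the mutants no RNA difference was called for these genes. In B6J.*Gtpbp1*-/- against B6J-*Gtpbp2*-/- edgeR called 0 of the 78, with 0 at an unadjusted p under 0.05 and 0 by DESeq2. Of all 25190 genes edgeR called 0.0595%, 899 had an unadjusted p under 0.05 and DESeq2 called 46. The median log2 fold change was 0.01 for the large and 0.02 for the small subunit. The lowest p was that of *Mrps18b* (log2 fold change 0.18, SE 0.101, edgeR adjusted p = 1), followed by *Mrps11* (0.14), *Mrpl33* (-0.15, but 0.02 with limma on log2(TPM + 0.5)), *Mrpl12* (0.11) and *Mrpl9* (0.10). A p that misses the threshold does not show that the mutants are alike.

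The subunits were set against each other within each library, as the median log2 TPM of large minus that of small subunit genes. The difference was -0.07, 0.11 and 0.14 in B6J, -0.14, -0.08 and -0.06 in B6J.*Gtpbp1*-/- and 0.07, 0.10 and -0.09 in B6J-*Gtpbp2*-/-. All groups overlapped. The mean difference from B6J was -0.15 in B6J.*Gtpbp1*-/- (pooled SD 0.0868, n = 3 per group) and -0.03 in B6J-*Gtpbp2*-/- (pooled SD 0.107). With protein_coding transcripts alone these differences were -0.26 and -0.25. Moving *Mrps18a* and *Mrps30* to the large subunit and leaving out *Mrps36* gave medians of RNA fold change of -0.12 for 51 large and -0.08 for 26 small subunit genes in B6J.*Gtpbp1*-/-. In footprints the large minus small difference was 0.33, 0.44 and 0.22 in B6J, 0.11, 0.23 and 0.26 in B6J.*Gtpbp1*-/- and 0.13, 0.20 and 0.39 in B6J-*Gtpbp2*-/-. These groups overlapped as well.

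**Figure D4:**
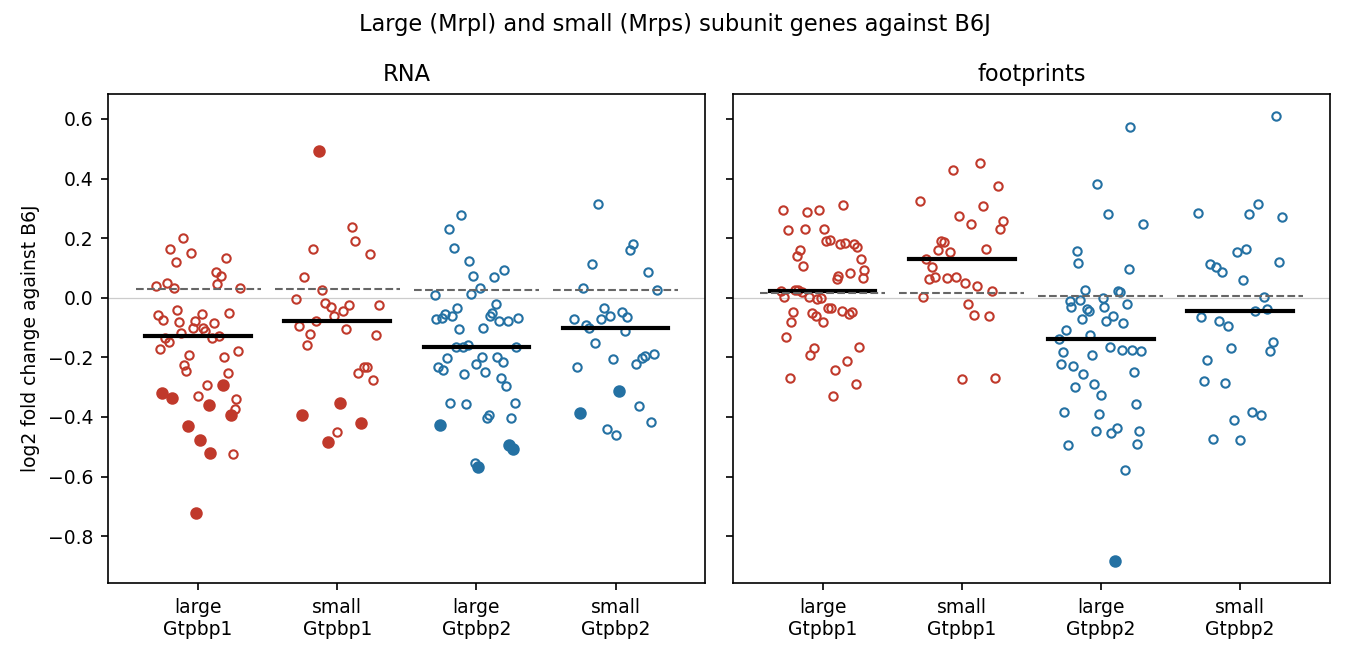
Log2 fold change against B6J of each large and small subunit gene in each mutant, for RNA (left) and footprints (right), with filled points called by edgeR, thick lines for group medians and dashed lines for the median of all genes tested. RNA medians lie between -0.16 and -0.08 with TMM scaling, and with limma on log2(TPM + 0.5) turn positive in both subunits of B6J.*Gtpbp1*-/- (0.10) and in the small subunit of B6J-*Gtpbp2*-/- (0.01).

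Genes on and off a list of proteins with a bacterial counterpart were also read as groups. Of 46 genes on it, 7 fell in B6J.*Gtpbp1*-/- (median log2 fold change -0.10). Of the 32 genes off it, *Mrps36* among them, 6 fell and 1, *Mrps18b*, rose (median -0.12). Of comparably abundant genes 14.1% were lower. In B6J-*Gtpbp2*-/- 4 and 2 fell, with medians of -0.10 and -0.18, where 9.17% of such genes were lower. *Mrps18a*, *Mrps30*, *Mrps36* and *Mrpl58* passed in neither mutant, with RNA log2 fold changes of -0.08, 0.24, -0.23 and -0.18 in B6J.*Gtpbp1*-/-, the first turning positive (0.14) with limma on log2(TPM + 0.5).

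Footprints of the 78 genes showed no called change in B6J.*Gtpbp1*-/- against B6J. edgeR called 0, with 0 at an unadjusted p under 0.05 and 0 by DESeq2. Of all 13956 genes edgeR called 0.745%, 1763 had an unadjusted p under 0.05 and DESeq2 called 406. The median log2 fold change was 0.02 for the large and 0.13 for the small subunit against 0.01 over all genes. Of the 78 genes 52 were positive, while 51.6% of all genes were. *Mrps21* had the lowest p, with 29.0, 16.9 and 31.3 CPM in B6J and 32.2, 28.7 and 43.2 in B6J.*Gtpbp1*-/-, which overlap (log2 fold change 0.43, SE 0.26, edgeR adjusted p = 0.536). *Mrps31* (0.45), *Mrpl40* (-0.33), *Mrpl14* (-0.27) and *Mrpl46* (0.31) came next. *Mrpl34* footprints, at 45.4, 62.3 and 60.9 CPM in B6J and 46.2, 51.8 and 70.6 in B6J.*Gtpbp1*-/-, overlapped, unlike its RNA.

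In B6J-*Gtpbp2*-/- against B6J the footprints of 1 gene, *Mrpl42*, fell, where 2.94% of 13797 genes were called. *Mrpl42* (mL42) is a large subunit protein without a bacterial counterpart. Its footprints were 47.0, 34.7 and 39.9 CPM in B6J, 45.3, 43.4 and 37.5 in B6J.*Gtpbp1*-/- and 20.9, 19.1 and 25.3 in B6J-*Gtpbp2*-/-. All B6J-*Gtpbp2*-/- libraries were below all others, which overlapped (log2 fold change -0.88, SE 0.204, edgeR adjusted p = 0.0316). Its RNA was 31.1, 27.8 and 34.9 CPM in B6J and 26.6, 32.0 and 31.8 in B6J-*Gtpbp2*-/-, with overlap. The call was lost without B6J-*Gtpbp2*-/- replicate 1 (edgeR adjusted p = 0.147), without B6J-*Gtpbp2*-/- replicate 2 (0.141), without B6J replicate 1 (0.135) and with a term for sex (0.277), all 3 mutant libraries being female and 2 of 3 B6J libraries male, the alternatives ranging from 0.00955 to 0.277.

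Of the 78 genes, 13 had an unadjusted p under 0.05 in that comparison (2355 of all 13797), and the median log2 fold change was -0.14 for the large and -0.04 for the small subunit against 0.01 over all genes. *Mrpl14* (-0.49), *Mrpl48* (-0.58), *Mrpl51* (0.57) and *Mrps24* (-0.48) were next and did not pass, with edgeR adjusted p from 0.182 to 0.203. *Mrpl51* (mL51) had 19.1, 15.8 and 16.7 CPM in B6J and 24.8, 22.3 and 29.1 in B6J-*Gtpbp2*-/-, which do not overlap.

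Footprints of B6J.*Gtpbp1*-/- against B6J-*Gtpbp2*-/- gave 0 calls in edgeR among the 78 and among all 14142 genes (0%), with 11 of the 78 at an unadjusted p under 0.05 (1523 of all). DESeq2 called 1 (100 of all), *Mrpl42* (edgeR log2 fold change 0.93, SE 0.198, adjusted p = 0.228). The median was 0.17 for the large and 0.11 for the small subunit. *Mrpl10* (0.50), *Mrpl57* (0.56), *Mrpl51* (-0.63) and *Mrps21* (0.59) came next by p. Each was without overlap between the mutants, but these genes were picked by p. The share of all genes without overlap is not given here.

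Footprints relative to RNA (translational efficiency) were tested as an interaction of assay and genotype. In B6J.*Gtpbp1*-/- against B6J edgeR called 0 of the 78 and 0% of 13086 genes, with 9 of the 78 at an unadjusted p under 0.05 (1170 of all) and 0 by DESeq2 (58 of all). The median log2 change of the ratio was 0.18 for the large and 0.26 for the small subunit against 0.03 over all genes. Of the 78 genes 64 were positive, while 54.2% of all genes were. Cytosolic ribosomal protein genes had a median of 0.38 and nuclear oxidative phosphorylation genes 0.33. *Mrps21* (0.92, SE 0.294), *Mrpl36* (0.71), *Mrpl34* (0.72), *Mrps34* (0.59) and *Mrpl54* (0.70) had the lowest p, with edgeR adjusted p from 0.477 to 0.523. Without replicate 3 of both assays and genotypes 1 gene passed, *Mrps33* (edgeR adjusted p = 0.0313), in a fit that called 317 of all 12636 genes.

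In B6J-*Gtpbp2*-/- against B6J edgeR called 0 of the 78 for translational efficiency, where 0.00773% of 12931 genes were called, with 7 of the 78 at an unadjusted p under 0.05 (1554 of all). DESeq2 called 160 of all genes, among them *Mrpl51* (edgeR log2 change 0.88, SE 0.207, adjusted p = 0.14) and *Mrpl42* (-0.81, SE 0.224, edgeR adjusted p = 0.232). *Mrps6* (1.04), *Mrpl36* (0.57) and *Mrpl17* (-0.46) followed. The median of the 78 was 0.04 against 0.03 over all genes, and -0.02 with protein_coding transcripts alone. Between the mutants edgeR called 0 of the 78 and 0% of 13292 genes, with 11 of the 78 at an unadjusted p under 0.05 (1483 of all). DESeq2 called 1 (155 of all), *Mrpl42* (edgeR log2 change 1.01, SE 0.198, adjusted p = 0.229), which edgeR also called without replicate 3, in a fit that called 132 of all 12796 genes. *Mrpl51* (-0.68), *Mrpl10* (0.50), *Mrps33* (0.71) and *Mrpl54* (0.64) had the next lowest p.

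Subunits that carry other symbols were read from a list of 5 genes. *Gadd45gip1* (mL64, large subunit) had 31.4, 29.0 and 30.4 CPM of RNA in B6J, 20.5, 24.5 and 23.1 in B6J.*Gtpbp1*-/- and 22.4, 24.7 and 20.1 in B6J-*Gtpbp2*-/-. Both mutants were below B6J and overlapped each other (log2 fold change -0.42 and -0.44, edgeR adjusted p = 0.0143 and 0.0294, calls held in 11 and 9 of 16 alternative fits). *Dap3*, *Ptcd3*, *Chchd1* and *Aurkaip1*, all of the small subunit, passed in neither comparison.

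Among 26 genes of mitoribosome assembly and rRNA modification, 1 rose in each mutant and 0 fell in edgeR, where 5.9% and 3.61% of all genes tested were higher. The gene was *Gtpbp10*, a GTPase of large subunit assembly, with 10.2, 13.2 and 12.01 CPM in B6J, 21.3, 16.9 and 22.4 in B6J.*Gtpbp1*-/- and 16.9, 16.5 and 17.5 in B6J-*Gtpbp2*-/-. Every mutant library exceeded every B6J library (log2 fold change 0.77 and 0.51, SE 0.14 and 0.132, edgeR adjusted p = 0.00261 and 0.0348). The call held in 16 of 16 alternative fits in B6J.*Gtpbp1*-/- and in 7 of 16 in B6J-*Gtpbp2*-/-. Its footprints were few and did not follow, with 4.04, 8.56 and 4.01 CPM in B6J and 5.43, 6.29 and 4.07 in B6J.*Gtpbp1*-/-.

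Of 13 mitochondrial translation factors, 1 fell in each mutant, the elongation factor gene *Tufm*, where 7.93% and 5.02% of all genes tested were lower. Its RNA was 53.9, 62.7 and 58.6 CPM in B6J, 42.1, 49.3 and 46.8 in B6J.*Gtpbp1*-/- and 40.0, 46.8 and 47.3 in B6J-*Gtpbp2*-/-, below B6J throughout (log2 fold change -0.35 and -0.39, edgeR adjusted p = 0.0202 and 0.0261). The call held in 12 and 9 of 16 alternative fits, and with limma on log2(TPM + 0.5) the fold changes shrank to -0.04 and -0.19. Of 23 genes for mitochondrial transcription, RNA processing and tRNA modification, edgeR called 0 in each mutant, with 4 and 5 at an unadjusted p under 0.05. Among all genes tested, 6464 of 24577 and 5585 of 24859 were under that threshold. Footprints gave 0 edgeR calls in these 4 lists in either mutant, with at most 2 genes of a list at an unadjusted p under 0.05. Over all genes, 1763 of 13956 and 2355 of 13797 were under it.

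Larger gene groups are given beside these, where 7.93% of all genes tested and 14.1% of abundant ones were lower in B6J.*Gtpbp1*-/-, and 5.02% and 9.17% in B6J-*Gtpbp2*-/-. RNA of 48 of 84 nuclear oxidative phosphorylation genes fell and 1 rose in B6J.*Gtpbp1*-/- (median log2 fold change -0.33), and 41 of 83 fell and 1 rose in B6J-*Gtpbp2*-/- (median -0.33). Cytosolic ribosomal protein genes had 4 higher and 4 lower of 76 (median 0.03) and 1 higher (median 0.01). Genes of the mitochondrial genome had 12 of 29 lower (median -0.49) and 9 of 31 lower (median -0.36). The rRNA genes *mt-Rnr1* and *mt-Rnr2* did not pass, with log2 fold changes of -0.31 and -0.34 in B6J.*Gtpbp1*-/-, in libraries made by poly(A) selection.

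Cell type markers also differed between genotypes in RNA. Of all genes tested, 7.93% were lower and 5.9% higher in B6J.*Gtpbp1*-/-, and 5.02% lower and 3.61% higher in B6J-*Gtpbp2*-/-. Granule cell markers (9 genes, *Cbln3* most abundant) summed to 6444, 6768 and 6586 CPM in B6J, 4247, 4131 and 4746 in B6J.*Gtpbp1*-/- and 4481, 4767 and 4069 in B6J-*Gtpbp2*-/-, so both mutants lay below B6J (8 and 7 of 9 genes fell). Microglia markers (6 genes, *Csf1r* most abundant, 4 and 3 called higher) were higher in both mutants, at 72.0, 73.6 and 76.0 CPM in B6J, 149, 130 and 123 in B6J.*Gtpbp1*-/- and 133, 126 and 137 in B6J-*Gtpbp2*-/-. Purkinje cell markers (7 genes, *Itpr1* most abundant, 2 and 4 called lower) were 8587, 9692 and 7264 CPM in B6J, 7099, 6313 and 8101 in B6J.*Gtpbp1*-/- and 6386, 7216 and 5933 in B6J-*Gtpbp2*-/-. Astrocyte and Bergmann glia markers (7 genes, *Slc1a3* most abundant, 3 lower and 1 higher in each mutant) overlapped between groups, at 2997 to 3892 CPM. Markers of other tissues (9 genes, *Ttr* or *Hbb-bs* most abundant, 0 called by edgeR, 1 and 0 at an unadjusted p under 0.05) varied within groups, from 355 to 2862 CPM. No marker gene was at 0 in any RNA library.

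Footprints of the same lists did not always follow RNA. Over all genes tested for footprints, edgeR called 0.745% in B6J.*Gtpbp1*-/- and 2.94% in B6J-*Gtpbp2*-/-, in either direction. Granule cell markers summed to 4273, 6589 and 4842 CPM of footprints in B6J, 3538, 2641 and 3923 in B6J.*Gtpbp1*-/- and 2701, 2449 and 2279 in B6J-*Gtpbp2*-/-, again below B6J without overlap (0 and 6 of 9 genes called lower). Purkinje cell markers were 11415, 7433 and 15197 CPM in B6J, 13989, 15160 and 8525 in B6J.*Gtpbp1*-/- and 17390, 17244 and 14825 in B6J-*Gtpbp2*-/-, with overlap and a higher mean in B6J-*Gtpbp2*-/-, opposite to RNA. Microglia markers were 143, 171 and 143 CPM in B6J, 355, 208 and 412 in B6J.*Gtpbp1*-/- and 208, 210 and 276 in B6J-*Gtpbp2*-/-, higher in both mutants (1 of 6 genes called in each). Markers of other tissues set single footprint libraries apart, at 6239, 4604 and 1673 CPM in B6J, 16613, 2142 and 15761 in B6J.*Gtpbp1*-/- and 1755, 12622 and 10482 in B6J-*Gtpbp2*-/-, with *Ttr* up to 13366 CPM. Astrocyte and Bergmann glia markers overlapped between groups. In whole cerebellum, fewer cells of a type and less RNA per cell cannot be told apart, and the part of cell composition in the results was not tested.

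The genes are spread over the genome. They lie on 17 chromosomes, with 11 on chromosome 11 and 0 on X or Y. The start of 18 of the 78 (23.1%) lies within 1000 bases of the start of a coding gene on the other strand that points away, against 6.80% of 21890 coding genes. *Mrps12* starts 172 bases from *Sars2*, the mitochondrial seryl-tRNA synthetase gene, *Mrpl49* 59 bases from *Fau*, which encodes a cytosolic ribosomal protein, and *Mrpl54* 26 bases from *Apba3*. A further description is overlap, with 24 genes overlapping another coding gene. *Mrpl46* and *Mrps11*, 1 gene of each subunit, overlap by 413 bases on opposite strands. Of the 78 genes, 35 share over 10% of their 31-base words with other genes and 22 share none, *Mrpl34* and *Mrpl28* among them.

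Promoter sequences of 300 bases from RefSeq (GRCm38.p6) were found for 69 of the 78 genes. *Mrpl4*, *Mrpl13*, *Mrpl15*, *Mrpl19*, *Mrpl38*, *Mrpl54*, *Mrps28*, *Mrps34* and *Mrps35* had no entry. In all, 6 strings of letters for known factors or elements, picked after values were seen, were searched on both strands. The ETS string CCGGAAG occurred in 25 (36.2%) against 9.12% of 27025 promoters, the YY1 string AAGATGGC in 12 (17.4%) against 2.88%, and the NRF1 string GCGCATGC in 8 (11.6%) against 2.80%. NRF1 matches were in 7 of 43 large and 1 of 26 small subunit promoters. The string GGGCGG was in 34 (49.3%) against 35.9%, CCAAT in 27 (39.1%) against 37.9%, and TATAAA in 4 (5.80%) against 14.2%. A match describes letters and is not a site. Median GC content was 58.3% in the promoters of these genes and 52.7% in all promoters, and its part in the matches was not tested.

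The promoters of the 5 genes lower in both mutants are shown because only these 5 were called in both comparisons with B6J. Both comparisons share the B6J libraries, and no share of all genes called in both is given. Promoter sequences are in lower case with ETS, YY1 and NRF1 matches on either strand in capitals. They lie at chr11:120484387-120484686 (*Mrpl12*, plus strand), chr13:73330759-73331058 (*Mrpl36*, plus), chr6:83108858-83109157 (*Mrpl53*, plus), chr7:28741772-28742071 (*Mrps12*, minus) and chr6:92183974-92184273 (*Mrps25*, minus). *Mrpl53* holds the ETS string on each strand, *Mrps12* holds ETS and the reverse of YY1, *Mrpl36* the reverse of YY1, and *Mrpl12* and *Mrps25* none of the 3.
Mrpl12: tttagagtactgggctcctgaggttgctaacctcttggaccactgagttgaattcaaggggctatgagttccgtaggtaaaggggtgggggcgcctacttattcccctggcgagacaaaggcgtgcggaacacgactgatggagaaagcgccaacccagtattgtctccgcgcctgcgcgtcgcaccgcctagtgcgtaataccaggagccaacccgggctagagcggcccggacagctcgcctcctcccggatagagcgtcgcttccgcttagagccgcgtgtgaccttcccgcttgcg
Mrpl36: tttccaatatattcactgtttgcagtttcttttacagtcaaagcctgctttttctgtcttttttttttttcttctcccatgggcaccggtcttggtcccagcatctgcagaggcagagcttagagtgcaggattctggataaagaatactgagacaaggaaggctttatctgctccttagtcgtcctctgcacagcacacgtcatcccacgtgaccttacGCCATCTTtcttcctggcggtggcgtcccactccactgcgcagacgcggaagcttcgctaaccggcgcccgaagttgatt
Mrpl53: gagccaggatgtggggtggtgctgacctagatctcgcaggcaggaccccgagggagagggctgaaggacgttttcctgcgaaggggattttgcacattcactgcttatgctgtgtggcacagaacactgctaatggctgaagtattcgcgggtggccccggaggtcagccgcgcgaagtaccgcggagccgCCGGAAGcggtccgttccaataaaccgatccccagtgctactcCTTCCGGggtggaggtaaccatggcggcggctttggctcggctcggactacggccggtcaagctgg
Mrps12: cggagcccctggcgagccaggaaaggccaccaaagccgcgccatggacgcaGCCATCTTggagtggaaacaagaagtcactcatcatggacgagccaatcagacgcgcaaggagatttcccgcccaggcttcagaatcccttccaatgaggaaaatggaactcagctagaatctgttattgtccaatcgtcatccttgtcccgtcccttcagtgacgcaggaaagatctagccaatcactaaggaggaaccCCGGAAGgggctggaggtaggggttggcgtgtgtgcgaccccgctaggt
Mrps25: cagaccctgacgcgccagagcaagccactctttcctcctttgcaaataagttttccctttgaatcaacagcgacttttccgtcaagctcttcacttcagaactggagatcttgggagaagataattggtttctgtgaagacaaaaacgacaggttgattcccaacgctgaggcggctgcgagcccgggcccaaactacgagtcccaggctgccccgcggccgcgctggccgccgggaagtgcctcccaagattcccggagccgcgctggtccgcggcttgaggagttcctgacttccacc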

How the data were processed

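RNA files held, per the labels, an estimated count and a TPM per transcript, which the authors made with kallisto 0.42.4 (bias correction) on Gencode M20 from paired reads of poly(A) libraries that do not keep strand. Footprint files held a count per gene on coding sequence, which the authors deposited after clipping, removal of rRNA reads with Bowtie2 2.2.3, alignment to mm10 with HISAT2 2.1.0 and featureCounts. Here estimated counts were summed per gene and rounded. A gene was tested if 3 or more of the 6 libraries compared held 5 or more counts of it. Tests were quasi-likelihood F tests (edgeR 4.0.16, TMM, robust) in R 4.3.3, with Benjamini-Hochberg adjustment over all genes and a threshold of 0.05. Translational efficiency used genes with 10 or more counts in 3 libraries of each assay, histone genes removed, and the interaction of assay and genotype. Alternatives used DESeq2 1.42.0, limma 3.58.1, upper quartile scaling, other filters, a model of all libraries, a replicate block, a sex term, a length offset, protein_coding transcripts alone, and leaving out each library. The code was tested on simulated data. Tables and plots were made with Python 3.11.15, pandas 2.3.3, numpy 2.4.6 and matplotlib 3.10.9.

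Members and lists were chosen with earlier results of these data known. Genes were named if called in any comparison, if among the 5 lowest p where fewer than 5 were called, if among the 5 highest or lowest in B6J TPM or the 3 highest or lowest footprint to RNA ratios, for an unusual role, or as members of small pathway lists. For genes named by call or p, libraries that do not overlap describe the same values and are not separate support. The length bins, the abundance background, the words of 31 bases shared with other genes (Gencode M21 transcripts, both strands) and the promoter strings were chosen after seeing the data, as were the *Ddx3y* level that separates the sexes and the final pattern for cytosolic ribosomal protein symbols. The sources do not say that RNA and footprint libraries of 1 number come from 1 mouse. For B6J replicate 1 and *Gtpbp1* mutant replicate 2 they cannot, since the RNA and footprint libraries differ in sex. The sources state 1 cerebellum for each footprint library and 3 mice for each genotype in RNA. Libraries of 1 genotype differed by more than counting noise in every pair. The shallowest library, of footprints, held 3630823 counts. The marker list of 1 cell type is not reported here.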

Additional observations from a re-analysis of the deposited data

How the results depend on the processing

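Of 114 alternative counts of called genes, 82 stayed within 1.5 times the reported count and 32 did not. The cause was not tested. Among RNA counts for B6J.*Gtpbp1*-/- against B6J (14 called), upper quartile scaling gave 8, a sex term 6, the length offset 0 and limma on log2(TPM + 0.5) 2, and leaving out 1 library gave 2 to 12. For B6J-*Gtpbp2*-/- against B6J (6 called), DESeq2 gave 16, upper quartile scaling 3, no filter 11, all 9 libraries in 1 model 13, a sex term 1, the length offset 1 and limma 0, and leaving out 1 library 1 to 4. With the replicate block the counts were 5 and 3. Replicate numbers showed no clear pairing. In deviations from group means, same-numbered RNA libraries correlated at -0.127 to 0.220, with 2 of 9 best with their own number, footprint libraries at -0.294 to 0.132 (4 of 9), and RNA with footprints at -0.145 to 0.149 (4 of 9). The block moved no other count of calls.

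The 1 footprint call in B6J-*Gtpbp2*-/- became 0 with a sex term and ranged from 0 to 1 when 1 library was left out. DESeq2 gave 1 for footprints between the mutants, and for translational efficiency 2 in B6J-*Gtpbp2*-/- against B6J and 1 between the mutants. Leaving out 1 replicate number gave 0 to 1 for translational efficiency in B6J.*Gtpbp1*-/- against B6J and between the mutants. With protein_coding transcripts alone, the large minus small RNA difference was -0.26 in B6J.*Gtpbp1*-/- against B6J, -0.25 in B6J-*Gtpbp2*-/- against B6J and -0.0103 between the mutants, and the median B6J level 39.6 TPM. Of 447 single-gene results 31 were called, and 1 of these changed direction, *Mrpl48* in B6J.*Gtpbp1*-/- with limma on log2(TPM + 0.5) (0.0307). Results that were not called changed sign more often, none of them passing in the other direction. In alternatives 206 values lost and 52 gained a call.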
